A study of Mus musculus with 56 samples.

Results

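Gene expression in granulocyte-macrophage progenitors (GMP) was compared between T2F3 and WT mice of the C57BL/6 strain. GMP are bone marrow progenitors that give rise to neutrophils, monocytes and other myeloid cells, and the sort kept cells with c-Kit, CD34 and CD16/32 on their surface and without Sca-1 or lineage markers. T2F3 mice had the genotype Tet2-/-Flt3ITD: both copies of Tet2, which encodes an oxidase of methylated cytosine, were lost, and the receptor tyrosine kinase gene Flt3 held an internal tandem duplication (ITD). WT mice were wild-type at both genes. The groups were taken from the labels, which gave 3 T2F3 and 5 WT GMP libraries, 8 of the 15 RNA-seq libraries and 8 of the 56 samples of the series. The labels used here do not give the ages of the mice, the number of Flt3ITD copies or the animal behind each library, so p-values measure the spread between libraries, which may be technical. Every T2F3 library carried both changes, so the contributions of Tet2 loss and Flt3ITD cannot be told apart.

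FLT3 is a receptor for a cytokine that acts on early blood progenitors and on the precursors of dendritic cells. Its ITD form signals without ligand and can activate STAT5, a transcription factor that switches on its own feedback inhibitors of the SOCS family. TET2 is a regulator of DNA methylation that is often lost in myeloid malignancies. Within the GMP gate lie precursors of neutrophils, monocytes, dendritic cells, eosinophils, basophils and mast cells, so an average over the gate mixes their transcripts.

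Values were regularized log2 expression values, a log scale on which genes with few reads are drawn towards their mean, so that differences of low genes are understated. The table holds no counts, so library depth is unknown. A difference is the T2F3 mean minus the WT mean on this scale, given with the standard error of limma, a linear model with a spread estimate shared across genes. The test covered the 11975 genes whose mean over the 8 libraries reached 4, and a gene was called where its limma p-value, adjusted over all of them by the Benjamini-Hochberg method, was under 0.05. A gene low in 1 group could therefore enter through the other group alone. Among named genes, Ccr7, Ccn3, Adam23, Fcgr1 and Adora2b averaged under 4 in WT. Epor, Slc45a3, Gzmb, Pou2af1, Il2rb and S1pr1 averaged under 4 in T2F3.

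A pair of libraries, 1 in each group, stood apart before any comparison. For this, each library was set against its group's average taken without that library. The 75 ribosomal protein genes measured were raised in WT GMP 1 and T2F3 GMP 2, by a median of 1.1 and 0.86 log2. In the remaining libraries this median lay between -0.64 and 0.03. The 76 respiratory chain genes followed the same pattern, with 0.9 in WT GMP 1 and 0.65 in T2F3 GMP 2. Some counts below are therefore also given without both libraries, or with the mean level of these genes as a covariate (the ribosomal covariate). The genes of the gate itself were present in all 8 libraries: Kit averaged 11.52 in WT and 11.29 in T2F3, Cd34 11.47 and 11.42, and Fcgr3, which encodes CD16, 11.01 and 10.74. None of these passed the test with all 8 libraries, and Fcgr3 was called lower with the ribosomal covariate (-0.45, adjusted p = 0.00311). Ly6a, which encodes the excluded Sca-1, averaged 7.12 and 7.61, and its call was lost when WT GMP 4, WT GMP 5, T2F3 GMP 1 or T2F3 GMP 2 was left out (adjusted p of 0.0529 to 0.0844). Of the 15 gate and lineage genes tested, Fcgr1, Ptprc and Ly6a were higher and 1 gene was lower. The counts were 6 and 1 without WT GMP 1, 6 and 2 without WT GMP 1 and T2F3 GMP 2, and 6 and 3 with the covariate. T cell markers were low, with Cd3e between 1.92 and 2.29 in all 8 libraries. By Y-linked genes and Xist, WT GMP 3 and T2F3 GMP 1 were from male mice and the other libraries from female mice, so each group held 1 male library.

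In all, 1111 of 11975 genes were called (9.28%), 790 higher (6.6%) and 321 lower (2.68%) in T2F3. The groups did not overlap in 2015 genes (16.8%), of which 1124 were higher (9.39%) and 891 lower (7.44%). Past a 2-fold difference, 312 genes were higher (2.61%) and 78 lower (0.651%). Without WT GMP 1 and T2F3 GMP 2 the count rose to 1086 higher (9.07%) and 674 lower (5.63%), and these held 754 of the 790 higher and 300 of the 321 lower genes. With the ribosomal protein score of each library as a covariate, 1479 genes were higher and 1352 lower, including all 1111 of the first fit. Higher genes made up 71.1% of calls in the first fit, 62.0% after quantile normalization and 52.2% with the covariate.

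**Figure D1:**
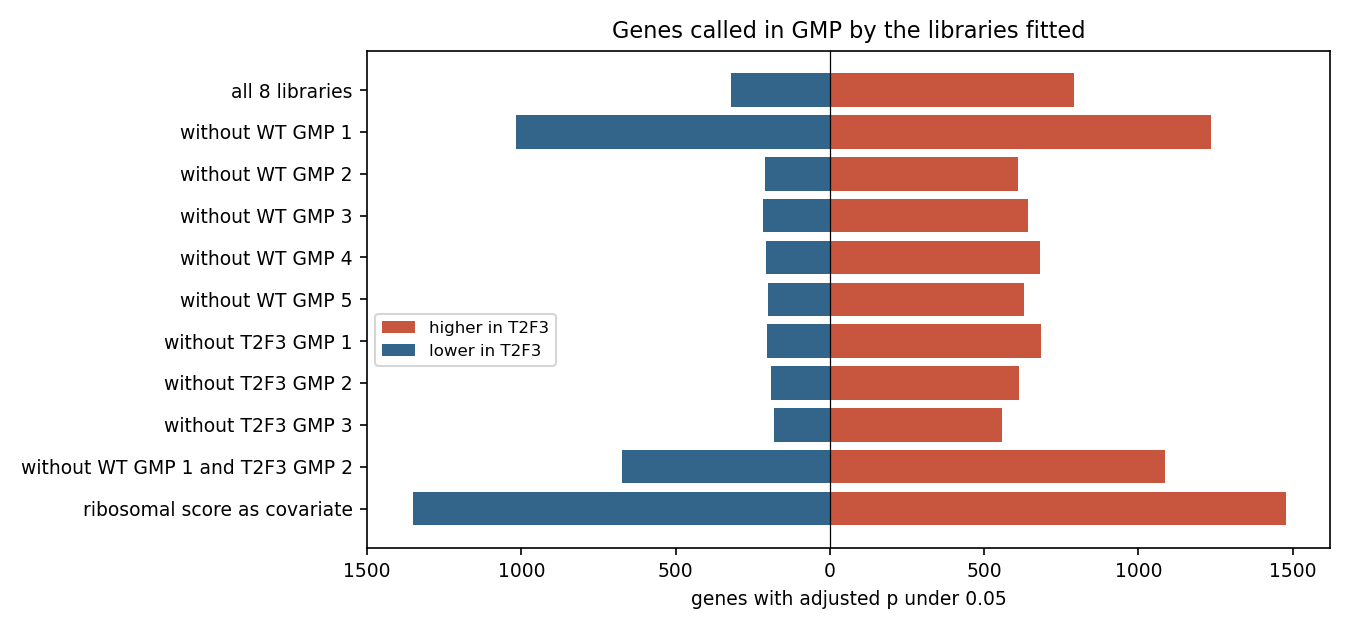
Number of genes called higher (right) or lower (left) in T2F3 GMP at an adjusted p under 0.05, by the libraries fitted. Leaving out WT GMP 1 raised the counts from 790 and 321 to 1236 and 1016, and leaving out any other single library lowered both.

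The largest rises with groups that did not overlap were in Socs2, H2-Aa, Cd209a, H2-Eb1, Septin3, Cd74, Cp, Tlr11, Ifi27l2a and Adam23, from 3.36 down to 2.86 log2. Socs2 is an inhibitor of cytokine signalling, H2-Aa, H2-Eb1 and Cd74 belong to antigen presentation by MHC class II, and Cd209a, a lectin, and Tlr11, a pattern receptor, mark dendritic cells. The largest falls were in Prss34, Gdf3, Slc45a3, Fcer1a, Pf4, Ms4a2, Cpa3, Gata2, Gzmb and Epx, from -2.87 to -1.92. Prss34, Fcer1a, Ms4a2 and Cpa3 are basophil and mast cell genes, Gata2 is a transcription factor of those lineages and of stem cells, Epx is an eosinophil peroxidase and Pf4 a platelet chemokine. All 20 of these genes kept their calls without WT GMP 1 and T2F3 GMP 2 and with any 1 library left out. The plot of called genes by list shows the same division over the lists described below. These lists were chosen with earlier results of these data known, so their shares describe the data and are not independent support. Some genes belong to several lists and are counted in each.

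**Figure D2:**
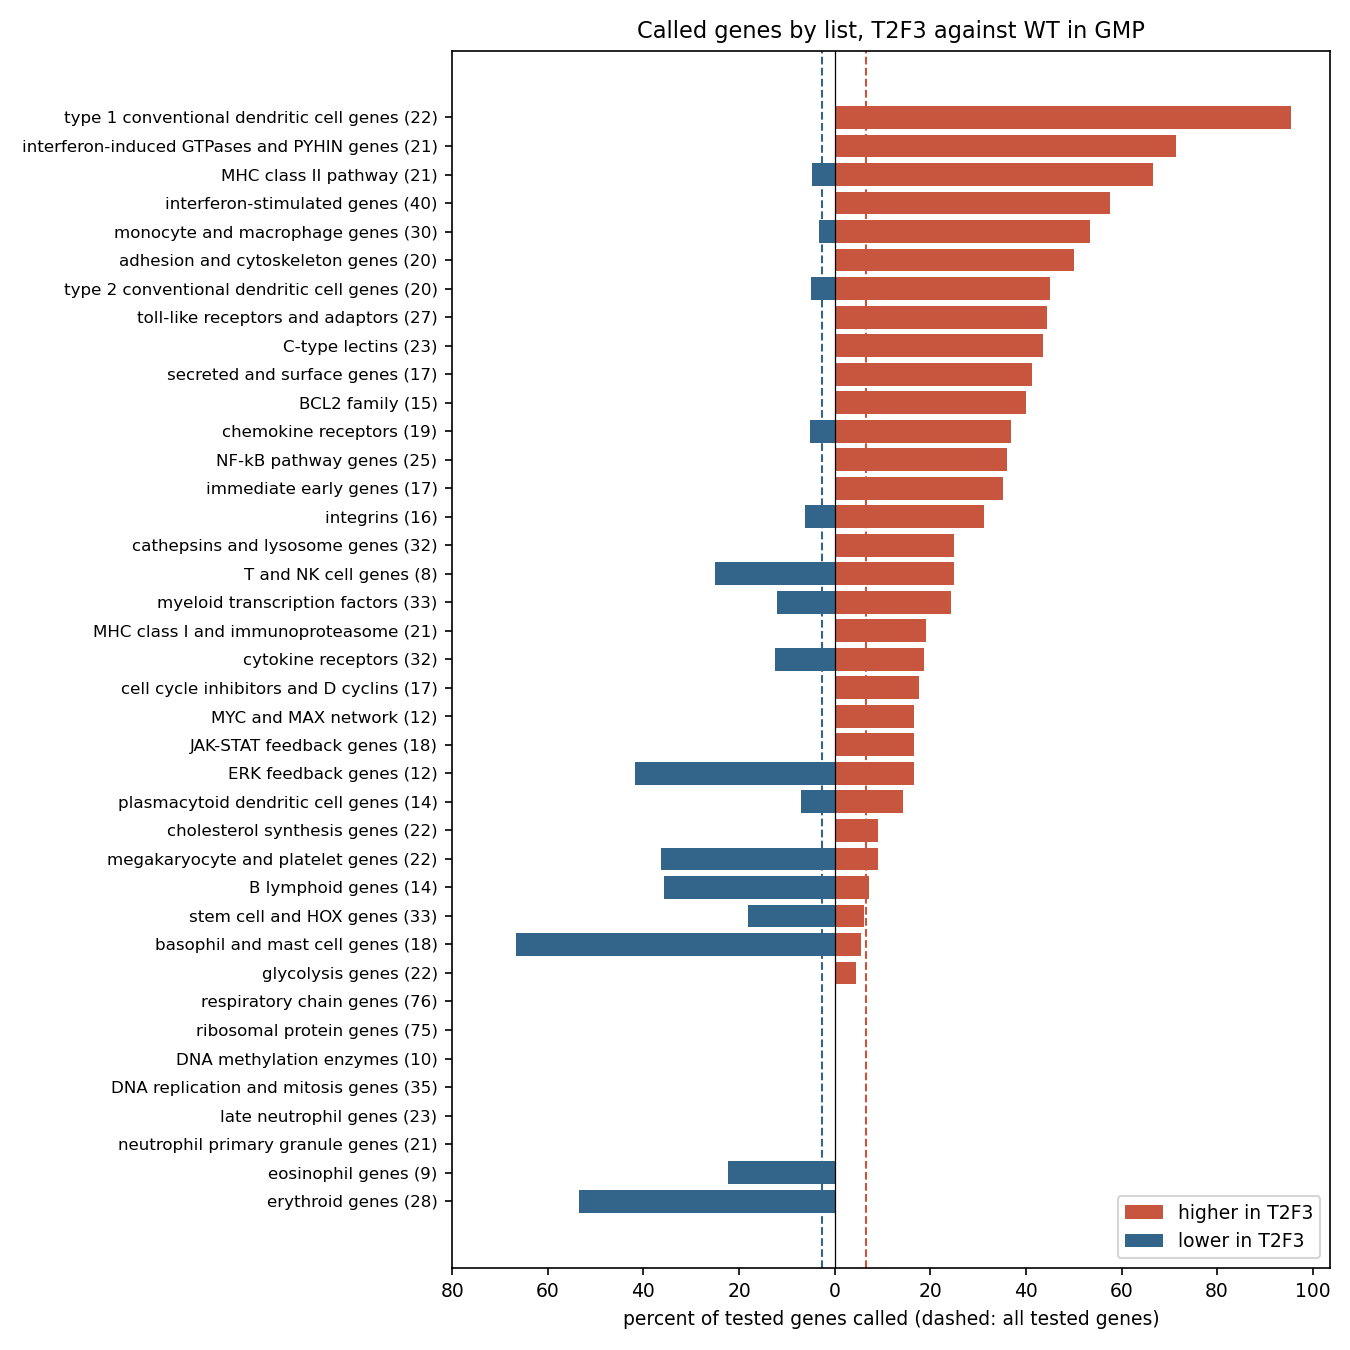
Percent of the tested genes of each list called higher (right) or lower (left) in T2F3 GMP, with the number tested in brackets. Dashed lines mark all tested genes, 6.6% higher and 2.68% lower. Type 1 conventional dendritic cell genes reached 95.5% higher, and basophil and mast cell genes 66.7% lower.

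Tet2 itself ran from 9.87 to 10.19 in the 5 WT libraries, with a median of 10.13, and measured 9.88, 10.3 and 10.17 in the T2F3 libraries. The groups overlapped, and the difference of 0.06 ± 0.12 (SE) did not pass the test (adjusted p = 0.824). The labels used here do not say which part of Tet2 was deleted, so the transcript level over the whole gene checks neither the label nor the loss of protein. Flt3 measured 8.72, 8.85, 8.89, 8.76 and 8.83 in WT and 9.87, 9.93 and 10.47 in T2F3. All 3 T2F3 libraries lay above all WT libraries, with a 2.43-fold rise (1.28 ± 0.13 log2, SE; adjusted p = 0.000129). In multipotent progenitors (MPP), an earlier population sorted from the same genotypes, the Flt3 difference was -0.06, and the difference between the 2 populations' effects passed its own limma test (1.34 ± 0.17, adjusted p = 0.00057).

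Among 18 feedback and target genes of JAK-STAT signalling, 3 were higher and none lower: Socs2, Cish and Bcl6. The share of higher genes was 16.7%, against 6.6% of all tested genes. Socs2 was low in WT, at 4.73, 5.23, 4.74, 4.96 and 4.89, and reached 7.86, 8.21 and 8.74 in T2F3. That is a 10.3-fold rise (3.36 ± 0.19, adjusted p = 3.11e-06). Cish, a close relative of Socs2, measured 5.14, 5.55, 5.47, 5.72 and 5.52 in WT against 6.92, 7.23 and 7.48 in T2F3, a 3.33-fold rise (1.73 ± 0.16, adjusted p = 5.94e-05). Not every STAT target moved: Socs3 differed by -0.20 (adjusted p = 0.436) and the kinase gene Pim1 by 0.44 (adjusted p = 0.336). The median of the list was 0.07, near the -0.02 of all tested genes. With the ribosomal covariate, 7 of the 18 were higher.

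Feedback and target genes of ERK, the kinase that lies downstream of receptor tyrosine kinases, did not rise as a group. Of 12 tested, 5 were lower, namely Dusp6, Etv5, Spry2, Spred2 and Spred1, and 2 were higher, Dusp5 and Spred3. Dusp6, a phosphatase that inactivates ERK, measured 8.20, 8.01, 8.23, 8.37 and 7.63 in WT and 6.39, 6.87 and 6.82 in T2F3, a 2.62-fold fall (-1.39 ± 0.18, adjusted p = 0.000471). Its groups did not overlap. Spry2, an inhibitor of receptor signalling, fell by 0.59 (adjusted p = 0.00539), and Dusp5, a nuclear ERK phosphatase, rose 2.22-fold (1.15 ± 0.17, adjusted p = 0.00165). The list depended on single libraries: the lower count dropped to 2 when WT GMP 3, WT GMP 4, WT GMP 5, T2F3 GMP 1 or T2F3 GMP 2 was left out and to 3 without T2F3 GMP 3. The higher count was 1 without WT GMP 1 and T2F3 GMP 2. Etv5, Spred1, Spred2 and Spred3 each lost their call without 5 or 6 of the 8 libraries in turn, with adjusted p-values up to 0.148, 0.166, 0.131 and 0.156.

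**Figure D3:**
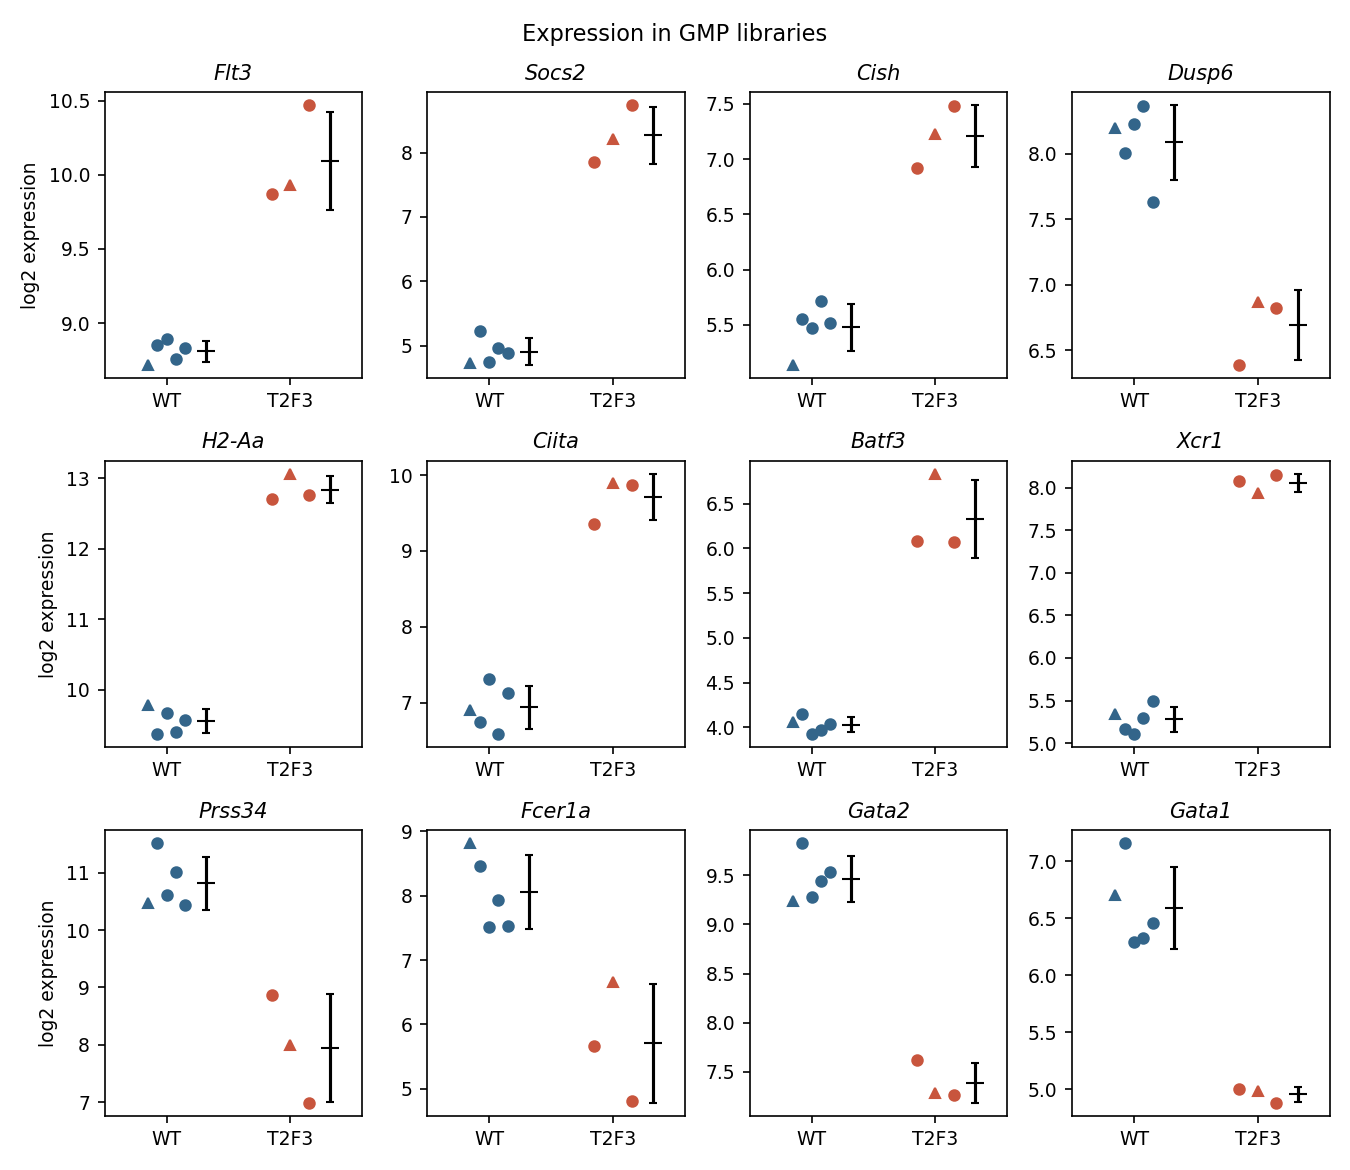
Log2 expression of 12 genes in the 5 WT (blue) and 3 T2F3 (red) GMP libraries, with the mean and SD in black and triangles for WT GMP 1 and T2F3 GMP 2. The groups do not overlap in any panel, and axes do not start at 0.

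Receptors for the cytokines that sustain granulocyte and macrophage production gave no call with all 8 libraries. Csf1r, the M-CSF receptor gene, measured 10.36 ± 0.32 (SD, n = 5) in WT and 10.57 ± 0.33 (SD, n = 3) in T2F3. Csf2rb, the shared chain of the GM-CSF, IL-3 and IL-5 receptors, differed by 0.28, Il3ra by -0.12 and Il6ra by 0.31, all short of the threshold. Csf3r, the G-CSF receptor gene, was 11.28, 11.33, 11.62, 11.61 and 11.43 in WT and 11.11, 11.22 and 11.01 in T2F3. These groups did not overlap, but the difference of -0.34 was not called with all 8 libraries (adjusted p = 0.119) and was called without WT GMP 1 and T2F3 GMP 2 (-0.44, adjusted p = 0.0191). Of the 32 cytokine receptor genes tested, 6 were higher, Il13ra1, Il10ra, Flt3, Il18r1, Il6st and Il1r2, and 4 lower, among them Epor, Il1rl1 and Il21r. The shares were 18.8% higher and 12.5% lower, against 6.6% and 2.68% of all tested genes. Il13ra1, a chain of the IL-4 and IL-13 receptors, rose 3.92-fold (1.97 ± 0.13, adjusted p = 7.22e-06), and Epor, the erythropoietin receptor gene, fell 2.15-fold (-1.10 ± 0.19, adjusted p = 0.00432). Il1r2 lost its call without WT GMP 2, T2F3 GMP 1 or T2F3 GMP 2 (adjusted p up to 0.0765), and Il1rl1 without any library except WT GMP 1 or T2F3 GMP 2 (up to 0.122). With the ribosomal covariate the counts were 15 and 7, and the differences of Il6ra (0.47, adjusted p = 0.000885), Csf2rb (0.39, adjusted p = 0.00375), Csf1r (0.36, adjusted p = 0.0217) and Csf3r (-0.32, adjusted p = 0.0241) were called.

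Myeloid transcription factors changed in both directions. Of 33 tested, 8 were higher, Batf3, Irf4, Id2, Irf5, Relb, Irf8, Bcl6 and Id1, and 4 lower, Gata2, Gfi1, Zbtb16 and Per3. Batf3, needed by type 1 conventional dendritic cells, measured 4.06, 4.15, 3.93, 3.97 and 4.04 in WT and 6.08, 6.83 and 6.07 in T2F3, a 4.91-fold rise (2.30 ± 0.18, adjusted p = 1.69e-05). Irf8, which directs monocyte and dendritic cell fates, was already high in WT, at 11.45, 12.00, 11.67, 11.46 and 11.84, and reached 12.57, 12.44 and 12.88. Its 1.92-fold rise (0.94 ± 0.17, adjusted p = 0.00452) was smaller than the 3.04-fold rise of Irf4 (adjusted p = 0.000282), which acts in type 2 dendritic cells, or the 3.03-fold rise of Id2 (adjusted p = 0.000184), an inhibitor of basic helix-loop-helix factors.

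Factors of the granulocyte lineages gave a different picture. Gfi1, a repressor needed for neutrophil formation, measured 10.86, 10.76, 10.85, 11.07 and 10.79 in WT and 10.34, 10.24 and 10.13 in T2F3, a 1.54-fold fall (-0.63 ± 0.11, adjusted p = 0.00371). Gata2 measured 9.24, 9.83, 9.28, 9.44 and 9.53 in WT and 7.62, 7.28 and 7.26 in T2F3, a 4.22-fold fall (-2.08 ± 0.15, adjusted p = 1e-05). Its groups were separated by more than the range within either. Spi1, which encodes the myeloid master regulator PU.1, and Cebpe, a late granulocytic factor, differed by -0.09 and 0.03 and did not pass the test. Cebpa, needed to form GMP, differed by -0.45 (adjusted p = 0.141), and by -0.40 (adjusted p = 0.0287) without WT GMP 1 and T2F3 GMP 2. The number of lower factors depended on single libraries, with 7 without WT GMP 1 and 2 without T2F3 GMP 1 or T2F3 GMP 3. Without either of the latter, Zbtb16 and Per3 lost their calls (adjusted p up to 0.0779 and 0.141), and that of Per3 was also lost without WT GMP 3, WT GMP 4 or WT GMP 5.

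**Figure D4:**
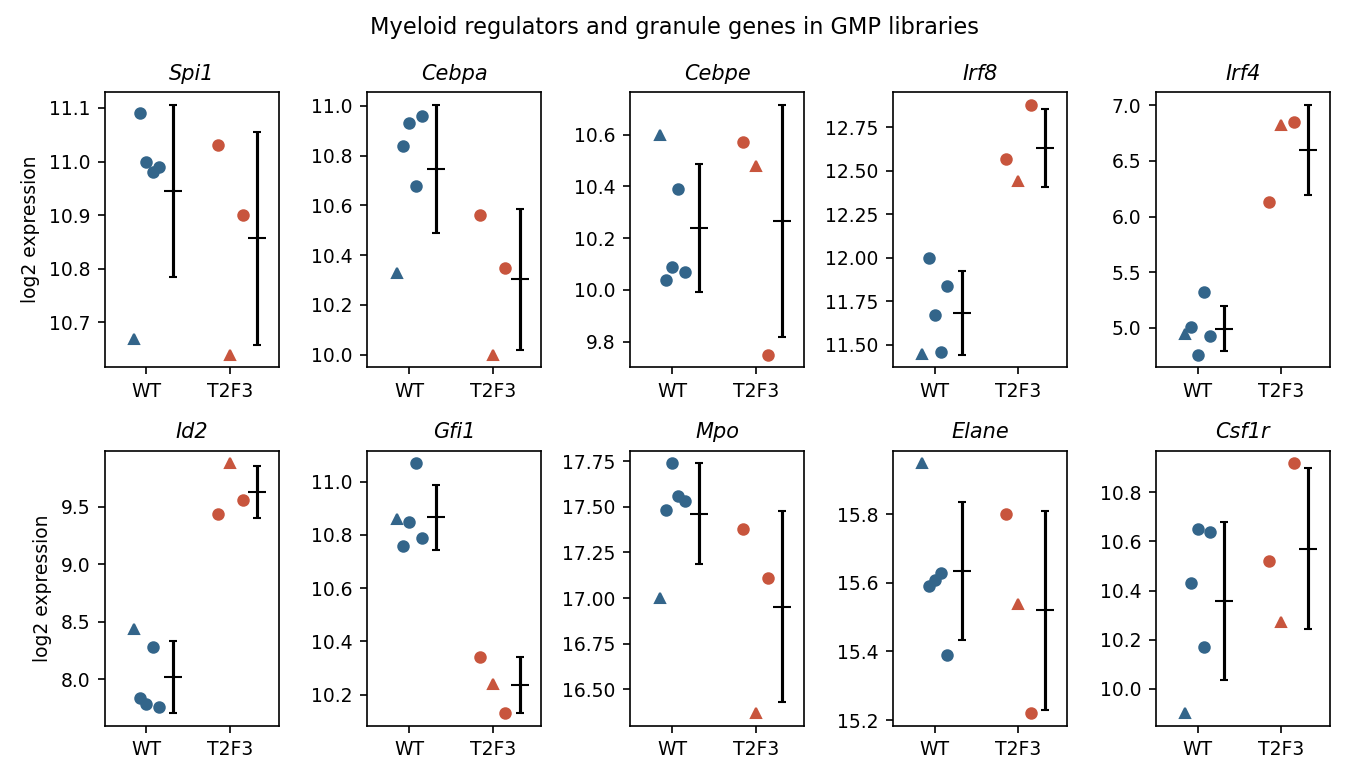
Log2 expression of myeloid transcription factors, granule genes and Csf1r in WT (blue) and T2F3 (red) GMP libraries, with the mean and SD in black and triangles for WT GMP 1 and T2F3 GMP 2. Irf8, Irf4, Id2 and Gfi1 show separate groups, while Spi1, Cebpe, Mpo, Elane and Csf1r overlap. Axes differ between panels and do not start at 0.

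Genes of type 1 conventional dendritic cells, which take up dead cells and present their antigens to CD8 T cells, were higher almost without exception. Of 22 tested, 21 were called higher and none lower, with a median difference of 1.86, and 20 or 21 were called with any 1 library left out. Cd24a was the only one not called, at 0.07. Xcr1, a chemokine receptor of these cells, measured 5.34, 5.17, 5.11, 5.29 and 5.49 in WT and 8.08, 7.94 and 8.15 in T2F3, a 6.87-fold rise (2.78 ± 0.12, adjusted p = 8e-07). Clec9a, a receptor for dead cells, measured 7.02, 6.77, 6.90, 6.78 and 6.75 against 9.06, 9.94 and 9.70, a 6.61-fold rise (2.72 ± 0.17, adjusted p = 4.96e-06). For both genes the separation of the groups was several times the range within WT. Tlr11, Itgae, Tlr3, Naaa, Btla and Cadm1 were also among the 21.

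Type 2 conventional dendritic cell genes rose in part. Of 20 tested, 9 were higher and 1 lower, with a median of 0.58, and without WT GMP 1 and T2F3 GMP 2 the counts were 12 and 1. The 9 include the targeted gene Flt3, and Zbtb46, which is also in the type 1 list. Cd209a rose 9.63-fold (3.27 ± 0.20, adjusted p = 4.66e-06), Itgax, which encodes CD11c, 4.74-fold (2.25 ± 0.14, adjusted p = 4.51e-06), and Zbtb46, a factor shared by conventional dendritic cells, 3.49-fold (1.80 ± 0.16, adjusted p = 3.54e-05). The lower gene was Mgl2, a lectin, and that call was lost when WT GMP 2, WT GMP 4, WT GMP 5, T2F3 GMP 1 or T2F3 GMP 3 was left out (adjusted p up to 0.152). Of 14 plasmacytoid dendritic cell genes tested, Rnase6 and Cd7 were higher and Atp1b1 was lower, the last not without WT GMP 2, WT GMP 3, WT GMP 4, T2F3 GMP 2 or T2F3 GMP 3 (adjusted p up to 0.137). The shares were 14.3% higher and 7.14% lower, against 6.6% and 2.68% of all tested genes. Siglech, the surface marker of plasmacytoid cells, lay under the minimum mean, between 3.46 and 3.99 in WT and between 3.65 and 3.77 in T2F3. Ly6d, a surface gene of lymphoid and plasmacytoid precursors, also lay under it in the mean of all libraries, at 4.02 to 4.71 in WT and 3.28 to 3.6 in T2F3, without overlap. Tcf4, a lineage factor of plasmacytoid cells, was 0.37 higher without overlap and was not called with all 8 libraries (adjusted p = 0.1). It was called with the ribosomal covariate (0.45, adjusted p = 0.00148), where 5 of the 14 plasmacytoid genes were higher and 2 lower.

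The summed level of 8 dendritic markers ran from 11.08 to 11.41 log2 in the WT libraries and from 14.16 to 14.38 in T2F3, and all 7 of those tested were higher. Marker sums, here and below, were taken before the log, so the highest genes weigh most. This sum mostly follows the class II genes Cd74 and H2-Aa, which averaged 13.42 and 12.84 in T2F3, against 8.06 for Xcr1. The marker not tested was Siglech, whose groups overlapped. More dendritic precursors or mature dendritic cells in the sorted population and more of these transcripts per cell cannot be told apart in bulk libraries, here and in the lineage lists that follow.

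Genes of antigen presentation by MHC class II were raised from the regulator to the peptide-loading machinery. Of 21 tested, 14 were called higher, with a median of 1.37, and the same number was called with any 1 library left out. Ciita, the co-activator that switches class II genes on, measured 6.90, 6.75, 7.31, 6.59 and 7.13 in WT and 9.36, 9.90 and 9.87 in T2F3, a 6.85-fold rise (2.78 ± 0.18, adjusted p = 5.6e-06). H2-Aa, a class II chain, measured 9.78, 9.38, 9.67, 9.41 and 9.57 against 12.70, 13.06 and 12.76, a 9.69-fold rise (3.28 ± 0.13, adjusted p = 8e-07). For both genes every T2F3 library lay far above the highest WT library.

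The invariant chain gene Cd74 rose 8.05-fold (3.01 ± 0.14), the class II genes H2-Eb1 and H2-Ab1 rose 9.09-fold and 7.23-fold, and H2-DMa, part of the peptide exchanger, rose 1.93-fold (0.95 ± 0.12, adjusted p = 0.00042). Rfx5, which encodes part of the factor bound at the X box, differed by -0.05 (adjusted p = 0.799). Marchf8, a ligase that removes class II from the surface, was 0.43 lower (adjusted p = 0.0418), and this call was lost when any library except WT GMP 1 or T2F3 GMP 1 was left out (adjusted p up to 0.161). Of 21 class I and immunoproteasome genes 4 were higher, H2-M3, Psmb9, H2-T23 and H2-Q4, a share of 19% against 6.6% of all tested genes, and the class I genes share sequence, so reads may be split between them. B2m, the class I light chain gene, and Tap1, a peptide transporter gene, were 0.43 and 0.44 higher and did not pass the test with all 8 libraries (adjusted p = 0.072 and 0.079). Without WT GMP 1 and T2F3 GMP 2 both were called and the count was 7. With the ribosomal covariate it was 10. Without T2F3 GMP 3, where Psmb9 and H2-Q4 lost their calls (adjusted p up to 0.181 and 0.0605), it was 2. Psmb9 also lost its call without each other library except WT GMP 1.

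Class II promoters share an X box and a Y box, the sites through which CIITA is recruited by bound factors. The 120 bases before the start of 3 raised class II genes are shown because they hold these boxes at like spacing, with capitals for an X box core (GCAAC), a Y box (CTGATTGG) and, in H2-Aa, a cyclic AMP response element (TGACGTCA). The sequences are from RefSeq, build GRCm38.p6, in the direction of the gene, at chr17:34287824-34287943 (minus strand) for H2-Aa, chr17:34305747-34305866 (plus strand) for H2-Eb1 and chr17:34092259-34092378 (plus strand) for H2-Oa.
H2-Aa: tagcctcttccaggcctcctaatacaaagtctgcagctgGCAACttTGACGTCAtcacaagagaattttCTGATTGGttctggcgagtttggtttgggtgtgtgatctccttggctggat
H2-Eb1: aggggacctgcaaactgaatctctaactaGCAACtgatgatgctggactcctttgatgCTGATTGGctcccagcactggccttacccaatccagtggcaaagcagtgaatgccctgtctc
H2-Oa: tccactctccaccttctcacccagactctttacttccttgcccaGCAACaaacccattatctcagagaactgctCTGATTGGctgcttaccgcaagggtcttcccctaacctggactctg

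An X core followed by a Y box within 60 bases on the gene's strand was present in 3 of the 11 higher class II genes that had a window of 250 bases before the start, and in 35 of 32851 such windows (0.107%). On either strand, the Y box letters alone were in 3.83% of windows, the X core in 29.9% and the cyclic AMP element in 1.55%. The letters were chosen after these sequences had been read, and a match describes the sequence and not binding.

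Monocyte and macrophage genes were higher in 16 of 30 and lower in 1, with a median of 0.89. Ccr2, the chemokine receptor that lets monocytes leave the marrow, measured 10.45, 10.43, 10.38, 10.05 and 10.40 in WT and 11.43, 11.75 and 11.68 in T2F3, a 2.42-fold rise (1.28 ± 0.13, adjusted p = 9.22e-05). S100a4 rose 5.65-fold (2.50 ± 0.39, adjusted p = 0.00263) and Mpeg1, which encodes a pore-forming protein of phagocytes, 2.57-fold (1.36 ± 0.14, adjusted p = 0.000101). Klf4, a monocyte factor, was 0.59 higher without passing the test (adjusted p = 0.107). Apoe, the lipid carrier gene, fell 1.69-fold (-0.75 ± 0.11, adjusted p = 0.0011). The summed level of 6 monocyte markers ran from 13.16 to 13.61 in WT and from 14.0 to 14.04 in T2F3, and 3 of them were higher, without overlap of the sums. With the ribosomal covariate 26 of the 30 were higher.

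Surface and sensing genes of phagocytes and dendritic cells were also higher, though some were already counted in the dendritic cell or monocyte lists. Those are Cd209a, Clec9a, Clec10a and Mrc1 among the lectins, Tlr3 and Tlr11 among the toll-like receptors, and Xcr1 and Ccr2 among the chemokine receptors below. C-type lectins, receptors for sugars on microbes and dying cells, were higher in 10 of 23, with a median of 0.85. Clec7a, the receptor for fungal glucans, joined them without WT GMP 1 and T2F3 GMP 2, where 15 were higher. Its difference was 1.24 with all libraries (adjusted p = 0.0794), 1.13 without both (adjusted p = 2.51e-05) and 0.90 with the ribosomal covariate (adjusted p = 2.59e-05). Toll-like receptors and their adaptors were higher in 12 of 27, with a median of 0.48, among them Tlr3, Tlr9 and Tlr2, the last by 0.64 (adjusted p = 0.00484). Unc93b1, which carries several of these receptors to endosomes, differed by 0.32 and was not called.

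Chemokine and other migration receptors were higher in 7 of 19 and lower in 1, with a median of 0.52. Ccr7, which guides dendritic cells to lymph nodes, measured 3.70 ± 0.19 (SD, n = 5) in WT and 4.98 ± 0.17 (SD, n = 3) in T2F3, a 2.43-fold rise (1.28 ± 0.14, adjusted p = 0.000226). Its WT mean lay under the minimum, so it was tested only because of its T2F3 level. Cxcr4, which retains cells in the marrow, was 0.49 higher with overlapping groups (adjusted p = 0.107). It was called without WT GMP 1 and T2F3 GMP 2 (0.45, adjusted p = 0.0446) and with the ribosomal covariate (0.38, adjusted p = 0.00533). S1pr1, a receptor for exit into blood, was 1.09 lower (adjusted p = 0.0183), a call lost without T2F3 GMP 2 or T2F3 GMP 3 (adjusted p = 0.0615 and 0.0764). Integrins were higher in 5 of 16, Itgae, Itgax, Itgb7, Itga1 and Itgad, and lower in 1. The lower one was Itga2b, the platelet integrin gene, at -1.52 ± 0.14 (adjusted p = 5.12e-05), while Itgam, which encodes CD11b, and Itga4 differed by 0.29 and -0.02 and were not called. Itgae, which encodes CD103, and Itgb7, which encodes its partner chain, rose by 2.74 ± 0.12 and 1.51 ± 0.17.

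Lysosomal genes were higher in 8 of 32, and 13 without WT GMP 1 and T2F3 GMP 2, but 5 without T2F3 GMP 1. Ctss, the protease that cleaves the invariant chain, rose 3.13-fold (1.65 ± 0.10, adjusted p = 4.55e-06), and Cst3, a protease inhibitor abundant in dendritic cells, 2.65-fold (1.41 ± 0.19, adjusted p = 0.000677), while Ctsl differed by 0.26 and was not called. Adhesion and cytoskeleton genes were higher in 10 of 20, and in 6 without T2F3 GMP 1, with Lsp1, an actin-binding protein gene of leukocytes, at 1.73 ± 0.11 (adjusted p = 4.51e-06). Secreted and surface genes of inflammation were higher in 7 of 17, among them Cp, Ccn3, Ccl6, Cxcl16, Il18 and Tnfsf9. Il1b lay under the minimum mean in both groups, between 2.20 and 2.91.

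**Figure D5:**
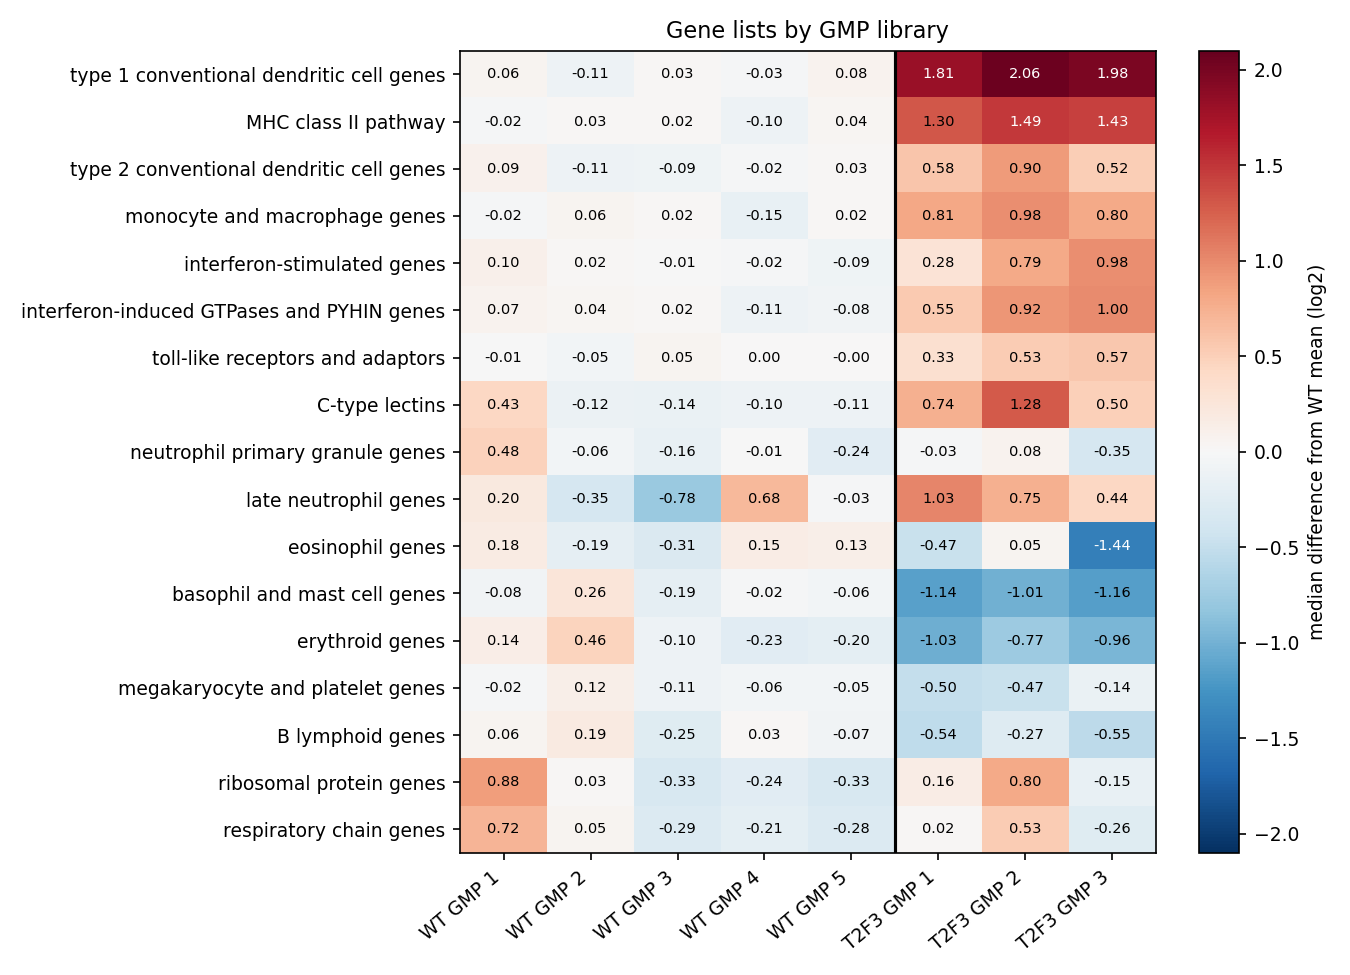
Median difference of each list's tested genes from the WT mean of each gene, in log2, for each of the 8 GMP libraries, on a colour scale from -2.1 to 2.1. Type 1 dendritic cell genes lie between 1.81 and 2.06 in the T2F3 libraries and between -0.11 and 0.08 in WT, and ribosomal protein genes are raised in WT GMP 1 and T2F3 GMP 2.

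Interferon-stimulated genes, which encode antiviral proteins, were higher in 23 of 40 and lower in none, with a median of 0.70, and all 40 differences were positive. Mx1, of an antiviral GTPase family, is annotated as a transcribed pseudogene and is given here as a transcript only. It measured 5.58, 5.77, 5.54, 5.19 and 5.28 in WT and 6.71, 7.73 and 8.02 in T2F3, a 4.04-fold rise (2.01 ± 0.27, adjusted p = 0.000822). Irf7, an amplifier of the interferon response, measured 5.98, 6.21, 5.93, 6.04 and 5.84 against 7.12, 8.03 and 8.34, a 3.56-fold rise (1.83 ± 0.23, adjusted p = 0.000525). T2F3 GMP 1 was the lowest of its group for both genes and still lay above all WT libraries. Over the whole list its median was 0.28, against 0.79 in T2F3 GMP 2 and 0.98 in T2F3 GMP 3.

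Ifi27l2a was spread widely, at 5.87, 4.88, 4.54, 4.65 and 4.80 in WT and 6.69, 9.20 and 7.71 in T2F3 (2.92 ± 0.49, adjusted p = 0.00429). The interferon-induced GTPase and PYHIN genes, sensors and effectors against intracellular microbes, were higher in 15 of 21 and lower in none, with a median of 0.71, and in 9 without T2F3 GMP 3. Members of the PYHIN cluster led, with Ifi207 at 2.31 ± 0.22, Ifi205 at 2.12 ± 0.14 and Ifi204 at 1.71 ± 0.16, though these genes are similar in sequence and reads may be split between them. Among the GTPases, which interferon gamma induces, Iigp1 (1.23 ± 0.18, adjusted p = 0.00141), Igtp (0.46 ± 0.10, adjusted p = 0.0136), Irgm2, Gbp3, Gbp5, Gbp6, Gbp7 and Gbp9 were higher, while Gbp2 and Irgm1 differed by 0.34 and 0.13 and were not called. Without T2F3 GMP 3, Igtp (adjusted p = 0.077), Irgm2, Gbp3, Gbp5, Gbp6 and Gbp9 lost their calls. Gbp5 lost its call without T2F3 GMP 1 too, Gbp3 without T2F3 GMP 1 or WT GMP 4, Gbp9 without T2F3 GMP 2, WT GMP 2 or WT GMP 3, and Gbp6 and Irgm2 without most of the other libraries (adjusted p up to 0.131 and 0.16).

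NF-kB pathway genes were higher in 9 of 25, with a median of 0.23, and in 5 without WT GMP 2, WT GMP 5, T2F3 GMP 2 or T2F3 GMP 3. Cd83, a surface protein of activated dendritic cells, rose 5.75-fold (2.52 ± 0.16, adjusted p = 4.66e-06), Traf1, a signalling adaptor, 3.15-fold (1.65 ± 0.12, adjusted p = 1e-05), and Relb, a factor of the alternative pathway, 1.93-fold (0.95 ± 0.12, adjusted p = 0.000432). Nfkbia, the classical feedback inhibitor, differed by 0.18 and was not called. Of 15 BCL2 family genes 6 were higher, the pro-survival genes Bcl2a1a, Bcl2a1d, Bcl2a1b and Mcl1 and the pro-death genes Pmaip1 and Bmf. Bcl2a1a, b and d are near-identical copies whose reads cannot be assigned with certainty. Bcl2 itself differed by 0.34 (adjusted p = 0.133). Immediate early genes, which respond to stimulation and to handling of cells, were higher in 6 of 17, led by Klf2 at 1.05 ± 0.13 (adjusted p = 0.000405), while Fos, Junb and Ier2 differed by 0.04, 0.09 and -0.04.

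Genes of the primary granules, the enzyme stores that GMP fill on the way to neutrophils, showed no called member among 21 with all 8 libraries. At an unadjusted limma p under 0.05, 3 were higher and none lower. At that threshold 1471 of all 11975 tested genes were higher and 1360 lower, so the share of higher granule genes was near that of all genes. Mpo, the myeloperoxidase gene and the highest of these, measured 17.00, 17.48, 17.74, 17.56 and 17.53 in WT and 17.38, 16.37 and 17.11 in T2F3 (-0.51 ± 0.31, adjusted p = 0.35). The lowest value of each group was in the library whose ribosomal protein genes were raised, WT GMP 1 or T2F3 GMP 2. The Mpo difference was -0.33 without both (adjusted p = 0.135) and -0.34 with the ribosomal covariate (adjusted p = 0.0724), not called in either. Elane, Prtn3 and Ctsg, which encode serine proteases of these granules, differed by -0.11, -0.29 and -0.19 and were not called. The sum of 8 GMP markers, most of them from this list or from the myeloid factors, ran from 18.14 to 18.34 in WT and from 17.57 to 18.16 in T2F3. With the ribosomal covariate 9 of the 21 were lower and 2 higher, and without WT GMP 1 none was lower and 2 were higher.

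Late neutrophil genes, of secondary granules and mature cells, had a median difference of 0.88 but no called member among 23. At an unadjusted limma p under 0.05, 9 of the 23 were higher, against 1471 of all 11975 tested genes. Levels of late neutrophil genes were spread widely in WT: Ltf, the lactoferrin gene, measured 11.96, 11.78, 11.54, 13.76 and 12.64, against 13.80, 13.07 and 13.12 in T2F3. WT GMP 4 was the highest WT library and fell within the T2F3 range. Without it, 9 of the 23 were called higher, and without WT GMP 1 or T2F3 GMP 3 it was 3. S100a8, which encodes a subunit of calprotectin, measured 15.91, 13.98, 13.74, 14.84 and 13.85 in WT and 15.52, 17.16 and 14.42 in T2F3, with overlapping groups (adjusted p = 0.282). The summed level of 6 late neutrophil markers ran from 13.91 to 15.95 in WT and from 15.32 to 16.18 in T2F3.

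Basophil and mast cell genes were lower in 12 of 18 and higher in 1, with a median of -1.14. Prss34, a basophil protease gene, measured 10.48, 11.52, 10.62, 11.02 and 10.43 in WT and 8.87, 7.99 and 6.99 in T2F3, a 7.28-fold fall (-2.87 ± 0.38, adjusted p = 0.000989). Ms4a2 and Fcer1a, which encode the beta and alpha chains of the IgE receptor, fell 4.45-fold (-2.15 ± 0.18, adjusted p = 2.85e-05) and 5.09-fold (-2.35 ± 0.42, adjusted p = 0.00547). Cpa3, the mast cell carboxypeptidase gene, measured 9.45, 9.98, 9.74, 9.53 and 9.49 against 7.97, 7.69 and 6.94, a 4.31-fold fall (-2.11 ± 0.21, adjusted p = 0.000141). All of these groups were separate, and T2F3 GMP 3 was the lowest library for each.

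Hdc, the enzyme that makes histamine, fell 1.95-fold (-0.96 ± 0.20, adjusted p = 0.0114). Mcpt8, a basophil granule protease gene, was 2.44-fold lower (-1.28 ± 0.28, adjusted p = 0.0173), a call lost without T2F3 GMP 3 (adjusted p = 0.0622) and without WT GMP 1 and T2F3 GMP 2 (adjusted p = 0.0669). The higher gene was Adora2b, an adenosine receptor gene, at 1.09 ± 0.13. The summed level of 6 basophil and mast cell markers ran from 12.1 to 12.94 in WT and from 9.83 to 10.75 in T2F3, and all 6 were lower. The count of lower genes lay between 10 and 12 with any 1 library left out.

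GATA2 binds sequences around the letters GATA, and the 120 bases before the start of 4 of the lowered genes are shown because each holds AGATAA, or TTATCT on the other strand, in capitals. They are from RefSeq, build GRCm38.p6, in the direction of the gene, at chr17:25298274-25298393 (plus strand) for Prss34, chr1:173227230-173227349 (minus strand) for Fcer1a, chr19:11623720-11623839 (minus strand) for Ms4a2 and chr3:20242182-20242301 (minus strand) for Cpa3.
Prss34: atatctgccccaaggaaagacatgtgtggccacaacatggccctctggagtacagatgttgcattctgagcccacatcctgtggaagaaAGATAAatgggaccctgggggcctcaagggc
Fcer1a: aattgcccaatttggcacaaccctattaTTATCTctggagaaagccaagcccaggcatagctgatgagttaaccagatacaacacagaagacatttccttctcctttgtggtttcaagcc
Ms4a2: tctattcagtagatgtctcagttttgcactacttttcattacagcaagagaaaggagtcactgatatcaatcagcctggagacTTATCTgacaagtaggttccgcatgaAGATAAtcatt
Cpa3: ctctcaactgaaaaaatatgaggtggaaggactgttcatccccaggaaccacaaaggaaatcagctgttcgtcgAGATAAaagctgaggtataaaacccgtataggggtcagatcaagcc

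The match begins 31 bases before the start in Prss34, 92 in Fcer1a, 46 in Cpa3, and 37 and 11 in Ms4a2. In windows of 250 bases, these letters were present on either strand in 5 of 11 lowered basophil and mast cell genes that had a window, the fifth being Il1rl1. They were present in 2 of 11 lowered erythroid genes, in 1 of 6 lowered megakaryocyte genes and in 9.99% of all 32851 windows. The matches describe the sequences only and were read after the expression values.

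Eosinophil genes were lower in 2 of 9, Epx and Prg3, and in 4 without T2F3 GMP 2, alone or with WT GMP 1. Epx measured 9.72, 10.42, 10.13, 10.48 and 10.68 in WT and 8.33, 8.59 and 8.19 in T2F3, a 3.78-fold fall (-1.92 ± 0.20, adjusted p = 0.000129). Its groups did not overlap. The Prg3 call was lost when WT GMP 2, WT GMP 4, WT GMP 5, T2F3 GMP 1 or T2F3 GMP 3 was left out (adjusted p up to 0.116). Prg2, which encodes the major basic protein, was 1.01 lower with overlapping groups (adjusted p = 0.181), and 1.41 lower without both libraries (adjusted p = 0.0464). The summed level of 3 eosinophil markers ran from 12.45 to 13.31 in WT and from 10.75 to 12.78 in T2F3, with overlap.

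Erythroid genes were lower in 15 of 28 and higher in none, with a median of -0.95. Gata1, the erythroid and megakaryocyte regulator, measured 6.70, 7.16, 6.29, 6.33 and 6.46 in WT and 5.00, 4.98 and 4.88 in T2F3, a 3.10-fold fall (-1.63 ± 0.19, adjusted p = 0.00026). Klf1, the activator of globin genes, fell 2.52-fold (-1.33 ± 0.18, adjusted p = 0.000884) and Zfpm1, the partner of GATA factors, 2.15-fold (-1.10 ± 0.17, adjusted p = 0.0018). Megakaryocyte and platelet genes were lower in 8 of 22 and higher in 2, Plek and F2rl2, with a median of -0.26. The lower ones include Gata1 and Zfpm1, already counted in the erythroid list. F2rl2 was not called when any library except WT GMP 1 or T2F3 GMP 1 was left out (adjusted p up to 0.174). Pf4 measured 7.64, 7.03, 5.63, 5.78 and 5.53 in WT and 4.16, 4.24 and 3.78 in T2F3 (-2.27 ± 0.46, adjusted p = 0.0127). WT GMP 1 and WT GMP 2 were the highest for Pf4, and the lowest WT library still lay above T2F3. Gp9 differed by -0.11 and was not called. The GMP gate excludes most erythroid and megakaryocyte precursors, and the summed level of 5 erythroid markers was low, from 7.71 to 8.41 in WT and from 6.68 to 6.99 in T2F3. The sum of 4 megakaryocyte markers ran from 9.4 to 9.96 and from 7.93 to 8.29. It mostly follows Itga2b, which averaged 9.35 in WT and 7.83 in T2F3, against 6.32 and 4.06 for Pf4.

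B lymphoid genes were lower in 5 of 14, among them Pou2af1, Rag1, Cecr2 and Cd79a, and higher in 1, Fcrla, with a median of -0.42. Ebf1, a B lineage factor, lay near the minimum mean, between 4.11 and 4.53 in WT and between 3.08 and 3.32 in T2F3. The sum of 4 B cell markers ran from 6.21 to 7.02 in WT and from 5.29 to 5.6 in T2F3. Of 8 T and NK cell genes tested, Klrd1 and Thy1 were higher and Il2rb and Lat lower. Klrd1 lost its call without WT GMP 2, WT GMP 3, WT GMP 4 or WT GMP 5 (adjusted p up to 0.102), and Cd79a without T2F3 GMP 1 (adjusted p = 0.0587), where 3 B lymphoid genes were called higher. Stem cell and HOX genes were lower in 6 of 33, among them Angpt1, Tek, Adgrg1, Tal1 and Hlf, and higher in 2, Hmga2 and Ly6a, with a median of -0.11. The share of higher genes, 6.06%, was near the 6.6% of all tested genes, while that of lower genes was 18.2% against 2.68%. Angpt1, which encodes a ligand of the Tek receptor, fell 2.58-fold (-1.37 ± 0.13, adjusted p = 5.08e-05). Hoxa9 and Meis1, partners in self-renewal, differed by -0.17 and -0.12 and were not called. Of the stem cell genes, Hlf lost its call without WT GMP 4, WT GMP 5, T2F3 GMP 2 or T2F3 GMP 3 (adjusted p up to 0.104) and Hmga2 without T2F3 GMP 2 or T2F3 GMP 3 (up to 0.0824).

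No gene of DNA replication and mitosis was called among 35 in limma with all 8 libraries, with 1 higher and 5 lower at an unadjusted p under 0.05. Of all 11975 tested genes, 1471 were higher and 1360 lower at that threshold. Mki67, the proliferation marker, measured 12.98 ± 0.31 (SD, n = 5) in WT and 12.86 ± 0.20 (SD, n = 3) in T2F3, and Ccnb1 and Mcm5 differed by 0.15 and -0.21. Without WT GMP 1 there were 4 lower genes. Among cell cycle inhibitors and D cyclins 3 of 17 were higher, Btg2, Btg1 and Cdkn2c, and Btg2, an antiproliferative gene, rose by 0.88 ± 0.09 (adjusted p = 0.000115). Cdkn1b and Ccnd1 differed by 0.45 and 0.43 without a call. Btg1 was not called when WT GMP 3 or any T2F3 library was left out (adjusted p up to 0.0814), and 5 of the 17 were called without WT GMP 1.

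In the MYC network 2 of 12 were higher, Mycl and Mxd3, the latter not when any library except WT GMP 1 or T2F3 GMP 3 was left out (adjusted p up to 0.182). The share of higher genes was 16.7%, against 6.6% of all tested genes. Mycl, the MYC relative used by dendritic cells, measured 5.69, 5.64, 5.96, 5.50 and 5.35 in WT and 7.63, 7.86 and 8.32 in T2F3, a 4.96-fold rise (2.31 ± 0.18, adjusted p = 1.73e-05). Myc was 11.22, 11.61, 11.44, 11.54 and 11.87 against 10.97, 10.85 and 11.26, overlapping and not called (-0.51 ± 0.16, adjusted p = 0.074), and it was called without WT GMP 1 and T2F3 GMP 2 (-0.50, adjusted p = 0.0266).

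Of 22 cholesterol synthesis genes Cyp51 and Hmgcs1 were higher, a share of 9.09%, near the 6.6% of all tested genes. The count was 7 without WT GMP 1, without WT GMP 1 and T2F3 GMP 2, or with the ribosomal covariate. No gene of this list was called without T2F3 GMP 3, where the adjusted p-values of Cyp51 and Hmgcs1 were 0.0891 and 0.0783. Cyp51 alone also lost its call without WT GMP 3, WT GMP 4 or T2F3 GMP 2. Of 22 glycolysis genes only Aldoc was higher (1.65 ± 0.15, adjusted p = 4.81e-05), a share of 4.55% that was no higher than that of all genes, and Hk2 and Ldha differed by -0.18 and -0.09. The 10 enzymes of DNA methylation held no called member. At an unadjusted limma p under 0.05, 2 of the 10 were lower, against 1360 of all 11975 tested genes. By adjusted p, 2 were called lower without WT GMP 1 and 1 without WT GMP 1 and T2F3 GMP 2. Beside Tet2, the differences were -0.31 for Tet1, -0.15 for Tet3, -0.15 for Dnmt3a and -0.43 for Dnmt3b, all with overlapping groups. No ribosomal protein or respiratory chain gene was called. At an unadjusted limma p under 0.05, 1 gene in each list was lower, a smaller share than the 1360 of 11975 for all genes. With the covariate 19 of the 76 respiratory chain genes were lower.

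Against MPP of the same genotypes, the genotype effect differed in 237 of 11975 genes (1.98%) in a limma fit of all 15 libraries. The count fell to 62 without T2F3 MPP 3, to between 98 and 115 without T2F3 GMP 3, T2F3 MPP 2, WT MPP 1, WT MPP 3 or WT MPP 4, and rose to 534 without T2F3 MPP 1. GMP and MPP libraries share their numbers, the labels do not say whether a shared number is 1 mouse, and the fit has no term for it. By Y-linked genes, the sex was the same in every same-numbered pair of GMP and MPP libraries of a genotype. The effects of H2-Aa, Xcr1 and Batf3 were 3.01, 2.74 and 2.39 in MPP and were not called different, with adjusted p-values of 0.65, 0.955 and 0.875 for the difference. The rise of Socs2 was larger in MPP, at 4.81 (difference -1.45, adjusted p = 0.00722), as was that of Itgae, at 3.54 (difference -0.80, adjusted p = 0.0216). The call for Itgae was lost without T2F3 GMP 2, WT MPP 3, T2F3 MPP 2 or T2F3 MPP 3 (adjusted p up to 0.0892). Mcpt8 was 0.61 higher in MPP without a call (adjusted p = 0.0512), against its lower level in GMP (difference -1.89, adjusted p = 0.00743). Gata1 and Klf1 were also lower in MPP, by -2.45 and -2.19 (adjusted p = 5.69e-08 and 1.17e-07). Their GMP effect minus their MPP effect, 0.81 and 0.85, was not called in this fit (adjusted p = 0.0894 and 0.0642). It was called in a limma fit with genotype and number as a block (adjusted p = 0.0208 and 0.0178). Oas2, an antiviral enzyme gene, was 0.02 in MPP and 1.33 in GMP (difference 1.3, adjusted p = 0.0182), a call lost without T2F3 GMP 3 (adjusted p = 0.0576).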

How the data were processed

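Per the labels' protocols, libraries were made with a TruSeq stranded mRNA kit. Expression was deposited by the authors as 1 table of regularized log2 values for 24424 genes with Entrez IDs. STAR, Bowtie, HOMER and DESeq2 are named in the submitters' processing notes beside the mm9 build, with neither version nor role, and whether counting used strand is not given in the sources used here. Values ran from -3.82 to 19.64, and 5135 genes were at exactly 0 in all libraries. Symbols came from the NCBI gene table of GRCm38.p6, which held 24345 of the IDs. The 41 samples of other assays were not analysed here. Promoter coordinates are of GRCm38.p6, not of the submitters' build.

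The 8 GMP libraries were fitted in limma 3.58.1 (R 4.3.3) with lmFit and eBayes (trend and robust), two-sided, and the difference from MPP was fitted in all 15. The fit was tested on simulated data. The members, rule and 41 gene lists (972 entries, 5 not found) were chosen with earlier results of these data known. Named genes were Tet2, Flt3, the 10 largest rises and falls with separate groups (leaving out predicted genes, pseudogenes and receptor segments), preset anchors of each list, and each list's largest rise and fall. Some genes that the rule names are not reported here. Members named beside these illustrate their list and were chosen after their values were seen. Alternatives were array weights, eBayes without trend or robust step, median centring, quantile normalization, filters at no minimum and at a mean of 6, a test against a log2 difference of 0.5, a replicate block, each library left out, both libraries with raised ribosomal protein genes left out, a ribosomal score as covariate, all 15 libraries and, added after the data were seen, a sex term and, for the difference from MPP, a replicate block and each library left out. Tables were joined in pandas 2.3.3 and NumPy 2.4.6 and plotted in Matplotlib 3.10.9, under Python 3.11.15.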

Additional observations from a re-analysis of the deposited data

Results flagged for a closer look

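In 18 named genes, 1 of the 5 WT GMP libraries lay far from the other 4 by Dixon's test at the 95% level, which chance gives in about 1 in 20 groups. Of these, 12 were in WT GMP 1, a library with raised ribosomal protein genes. Its levels were 5.87 for Ifi27l2a, 8.27 for Marchf8, 8.01 for H2-M3, 5.96 for Lck and 5.04 for Klrd1. They were 10.67 for Spi1, 10.97 for Unc93b1, 9.98 for Clec7a, 13.45 for Clec12a and 11.71 for Mcm5. Ccnd3 and Ccl9 stood at 9.92 and 12.03 there. In WT GMP 2, the erythroid genes Klf1 and Zfpm1 were high, at 6.44 and 8.56. In WT GMP 3, Gbp2 was at 6.97 and Fos at 6.85. In WT GMP 4, Ccr2 was at 10.05, the lowest of its group, and Mxd1 at 9.30.

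For 14 named genes the T2F3 effect differed between GMP and MPP in the limma test of that difference, given here as the GMP effect minus the MPP effect. The differences of genes whose effect was more positive in GMP were 1.34 for Flt3, 1.3 for Oas2, 1.26 for S1pr1, 0.69 for Apoe and 0.67 for Meis1. More negative in GMP were Mycn (-2.33), Enah (-2.22), Ccn3 (-1.98), Mcpt8 (-1.89), Gzmb (-1.55) and Socs2 (-1.45). The remaining ones were Lck (-1.32), Hmga2 (-1.01) and Itgae (-0.80). The difference was no longer called for Meis1 in 12 and S1pr1 in 10 of the 15 fits with 1 library left out (adjusted p up to 0.154 and 0.137), for Hmga2 in 5 (without T2F3 GMP 1, WT MPP 1, WT MPP 4, T2F3 MPP 2 or T2F3 MPP 3), for Itgae in 4, for Apoe without T2F3 MPP 3 and for Oas2 without T2F3 GMP 3. Of these, Mycn, Lck and Meis1 were not called in GMP itself. Enah, which encodes an actin regulator, and Ccn3, a secreted matrix protein, rose in both populations, by 1.53 and 2.70 in GMP and by 3.75 and 4.68 in MPP.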

How the results depend on the processing

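Of the 177 named genes 104 were called, and none changed sign among the called under any setting run. The 1111 calls (790 higher, 321 lower) moved by more than 1.5 times, in total or in 1 direction, under these settings. A minimum mean of 6 left 658 (484 higher, 174 lower) and a test against a log2 difference of 0.5 left 301 (250 and 51), both by testing or passing fewer genes. Array weights gave 2489 (1304 and 1185), the ribosomal covariate 2831 (1479 and 1352), leaving out both libraries with raised ribosomal protein genes 1760 with 674 lower, and all 15 libraries 1819 with 726 lower. Of these last 4, the cause was not tested. With each library left out, the counts ran from 741 to 2252 in all, 559 to 1236 higher and 182 to 1016 lower, the highest without WT GMP 1 and the lowest without T2F3 GMP 3. The replicate block gave 445 calls (359 higher, 86 lower), with 29 named genes losing their call. Deviations of same-numbered libraries correlated at -0.327, -0.082 and 0.523, and no T2F3 library correlated best with the WT library of its own number. The labels do not say whether a number shared by T2F3 and WT marks a common batch, and so few pairs cannot settle it. For the difference between GMP and MPP, deviations of same-numbered GMP and MPP libraries of 1 genotype correlated at 0.052 to 0.47, and 5 of 7 correlated best with their own number. A replicate block of genotype and number, added after seeing the data, gave 184 calls, 144 of them among the 237 without it; it called all 14 named genes called without it and 8 more, among them Gata1 and Klf1 (adjusted p = 0.0208 and 0.0178). With each library left out the count ran from 62 to 534. Named genes losing their call numbered 3 without both libraries (Etv5, Mcpt8 and Car1), 3 with the sex term, none with the covariate, 39 in the test against 0.5, 12 without a filter, and up to 12 with 1 library left out. Named genes gaining a call numbered 9 without both libraries and 23 with the covariate. Unknown depth limits the low genes, where no counting error can be given.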

Other observations

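Genes outside the lists, chosen after their values were seen, are given for both sides of the comparison. Cd36, a scavenger receptor gene, measured 5.07, 5.14, 5.00, 5.01 and 4.86 in WT and 7.58, 7.88 and 7.52 in T2F3 (2.64 ± 0.12, adjusted p = 9.07e-07 in limma). Havcr2, which encodes TIM-3, an inhibitory receptor also found on dendritic cells, rose by 2.38 ± 0.12, and Slamf7, a receptor of the SLAM family, by 2.64 ± 0.16. Cd86, a co-stimulatory ligand gene, measured 5.64, 4.97, 4.95, 5.00 and 4.95 in WT against 7.27, 7.93 and 7.19. Anpep, which encodes the aminopeptidase CD13, rose by 2.27 ± 0.18. Other receptor genes were raised as well, with Fgfr1 at 2.03 ± 0.17 and Lifr at 1.84 ± 0.16. Groups did not overlap in any of these 7 genes, which were picked with these values in view. Of all tested genes, 9.39% were higher without overlap.

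Among lower genes outside the lists, Slc22a3, a transporter of amines, measured 8.22, 8.57, 8.18, 8.24 and 8.39 in WT and 6.86, 6.70 and 6.47 in T2F3 (-1.64 ± 0.12, adjusted p = 1.67e-05). Slc18a2, which loads histamine and other amines into vesicles, was at -1.18 ± 0.12 (adjusted p = 0.000127). Cdh1, which encodes E-cadherin, was at -1.54 ± 0.18 and the red cell antigen gene Kel at -1.48 ± 0.13. Grb10, an adaptor that dampens receptor kinase signalling, measured 7.39, 7.73, 7.71, 7.83 and 7.94 against 6.63, 6.23 and 6.63 (-1.22 ± 0.14, adjusted p = 0.000309). Atp1b2, a sodium pump subunit gene, was at -1.72 ± 0.16. All 6 of these genes, also picked with their values in view, were lower in every T2F3 library than in every WT library. Of all tested genes, 7.44% were lower in this way.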
